A study of Mus musculus with 16 samples.

Results

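The receptors of the B cell survival cytokines BAFF and APRIL and the Pim kinases were followed across follicular B cells of 5 mouse groups. The set held 6 genes: Tnfrsf13b (TACI), Tnfrsf13c (BAFF receptor), Tnfrsf17 (BCMA), Pim1, Pim2 and Pim3. They were found by the gene name that the scanner files give to each probe, with every probe of that name taken. The 6 genes were represented by 9 probes, and all of them were among the 20469 genes tested of 27670 on the array.

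By label, all were follicular B cells, which circulate between blood and the follicles of lymphoid organs, of C.B17 mice. Auto.Pos cells (n = 2) carried the AGcAμκTg receptor transgenes VH3609μ/Vk19-17κ, which react with intestinal goblet cells. Another label field of the same samples calls the light chain Vkappa17-17kappa. Auto.Neg cells (n = 2) carried the ATAμκTg transgenes VH3609μ/Vk21-5κ against the thymocyte antigen Thy-1, in Thy-1 knockout mice. WT cells (n = 2) were wild type. Edited cells and Non-edited cells, with 1 sample each, were of the genotype VH3609t +/- and Vk21-5Tg +/- and also lacked Thy-1, and editing is the usual term for replacing a receptor chain by a further rearrangement. So the Auto.Neg, Edited and Non-edited groups lacked Thy-1, and the Auto.Pos and WT groups are not labelled as lacking it. By these labels, Auto.Pos against Auto.Neg sets cells whose receptor has its antigen in the mouse against cells whose antigen is missing, with light chains that differ too. The labels state neither the ages of the mice, nor the promoters of the transgenes, nor whether mice were pooled. Nothing in the labels says that samples of a group are of different mice, so the p-values rest on a spread that may be technical.

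BAFF and APRIL are ligands of the TNF family. BAFF receptor is the main survival receptor of mature follicular B cells and works through loss of TRAF3 and the non-canonical NF-kB pathway, TACI restrains B cell numbers and takes part in T-independent antibody responses, and BCMA supports long-lived plasma cells. TACI and BCMA bind both ligands, whereas BAFF receptor binds BAFF. Pim kinases are serine/threonine kinases that need no activating phosphorylation, so their activity follows their abundance. They are induced by cytokine receptors through JAK and STAT proteins, and Pim2 is also induced through BAFF and NF-kB in B cells.

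Each sample was read on 2 dual-colour Agilent arrays with swapped dyes, with a pool of RNA from 6 cell lines as the common reference. Among these were J558, a mouse plasmacytoma line, EL4, a T cell lymphoma line, and P388d, a macrophage-like line, beside R1, RS2 and DN3. A value is the log2 of sample over reference, averaged over the 2 arrays of a sample, so 0 means as much signal as in the pool and 1 means 2-fold more. Such ratios set samples against each other for 1 probe, and they do not set the level of a gene against that of another.

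Tnfrsf13b, Pim1 and Pim2 each had a second probe, and some results below turn on which probe is read. The first 30 bases of the 60-base probes of these genes are therefore shown as the scanner files list them, all in lower case because no motif is marked. The probe with the higher mean intensity, called the brightest probe here, represented its gene in the tests.
Tnfrsf13b brightest probe: agacgaacctatttctagtctttaagatct
Tnfrsf13b second probe: gcaccagggatctgagcatggtccaggatt
Pim1 brightest probe: ccttgggatcctgctctatgacatggtctg
Pim1 second probe: agtctaatgacgcccgagaagtccgagctc
Pim2 brightest probe: ctactgttacccaagtgctcttattccggt
Pim2 second probe: cacgctacagggatagatggacatctgttg

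The files give positions in mouse build mm7. The Tnfrsf13b probes were listed at chr11:61230555-61230614 and at chr11:61223024-61228432, both on the plus strand. The second of these spans 5409 bases, so the 60 bases of that probe are split over the genome. The single probe of Tnfrsf13c was listed at chr15:82306190-82306249 on the minus strand. That of Tnfrsf17 was listed at 436643 to 436702 on the minus strand of 16_random, a piece of chromosome 16 that this build had not placed. RefSeq (GRCm38.p6) has Tnfrsf17 on the plus strand, but an unplaced piece has no settled orientation, so the listed strand of this probe was not read against the gene. The Pim2 probes were listed at chrX:6316238-6316298 and chrX:6315702-6315761 and the Pim3 probe at chr15:88947531-88947590, all on the plus strand. The Pim1 probes were listed at chr17:27685743-27685802 on the plus strand and at chr17:27683630-27683689 on the minus strand, whereas RefSeq places Pim1 on the plus strand. Of 15628 probes with a RefSeq strand, 99% were listed on the strand of their gene, so the second Pim1 probe, on a placed chromosome and opposite to its gene, is not read here as a measure of Pim1. The brightest Pim2 probe shares a run of 32 bases with a further probe of the array, and no other member probe shared more than 15. Exons and untranslated regions could not be assigned, because no annotation of that build was used here.

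Per array, the scanner software marked 61.9% to 81.9% of probes as well above background in the sample channel. The 10 B cell identity genes, which include Cd79a and Ms4a1, were above background in every sample, with a median ratio of 3.58 to 5.39. All 9 plasma cell markers were above background too, with medians of -2.61 to -1.89, and 8 or 9 of 9 T cell markers were, with medians of -3.06 to -2.18. Markers of some other blood cells read above the reference. Their medians were 1.04 to 2.99 for macrophages and monocytes, 0.66 to 3.83 for neutrophils and 0.60 to 2.42 for erythroid cells and platelets. Of the markers on the array, 8 or 9 of 9, 3 to 7 of 7 and 5 to 7 of 7 were above background. NK cell markers read below the reference, with medians of -1.71 to -0.83 and 3 to 5 of 7 above background. Dendritic cell markers read near it, with medians of 0.14 to 0.35 and 5 to 7 of 7 above background. There were 7 slides and 4 scan days. Auto.Pos sample 1 and Auto.Neg sample 2 lay on the same slide (slide 2), and r across genes was 0.978 between them, higher than within Auto.Pos (0.904), Auto.Neg (0.903) or WT (0.923). Scan day 3 was common to Auto.Pos sample 2 and WT sample 2, while Auto.Neg and WT had neither a slide nor a scan day in common. For the members, the difference inside slide 2 (Auto.Pos minus Auto.Neg) and inside scan day 3 (Auto.Pos minus WT), between single samples, stands beside the group difference.

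**Figure D1:**
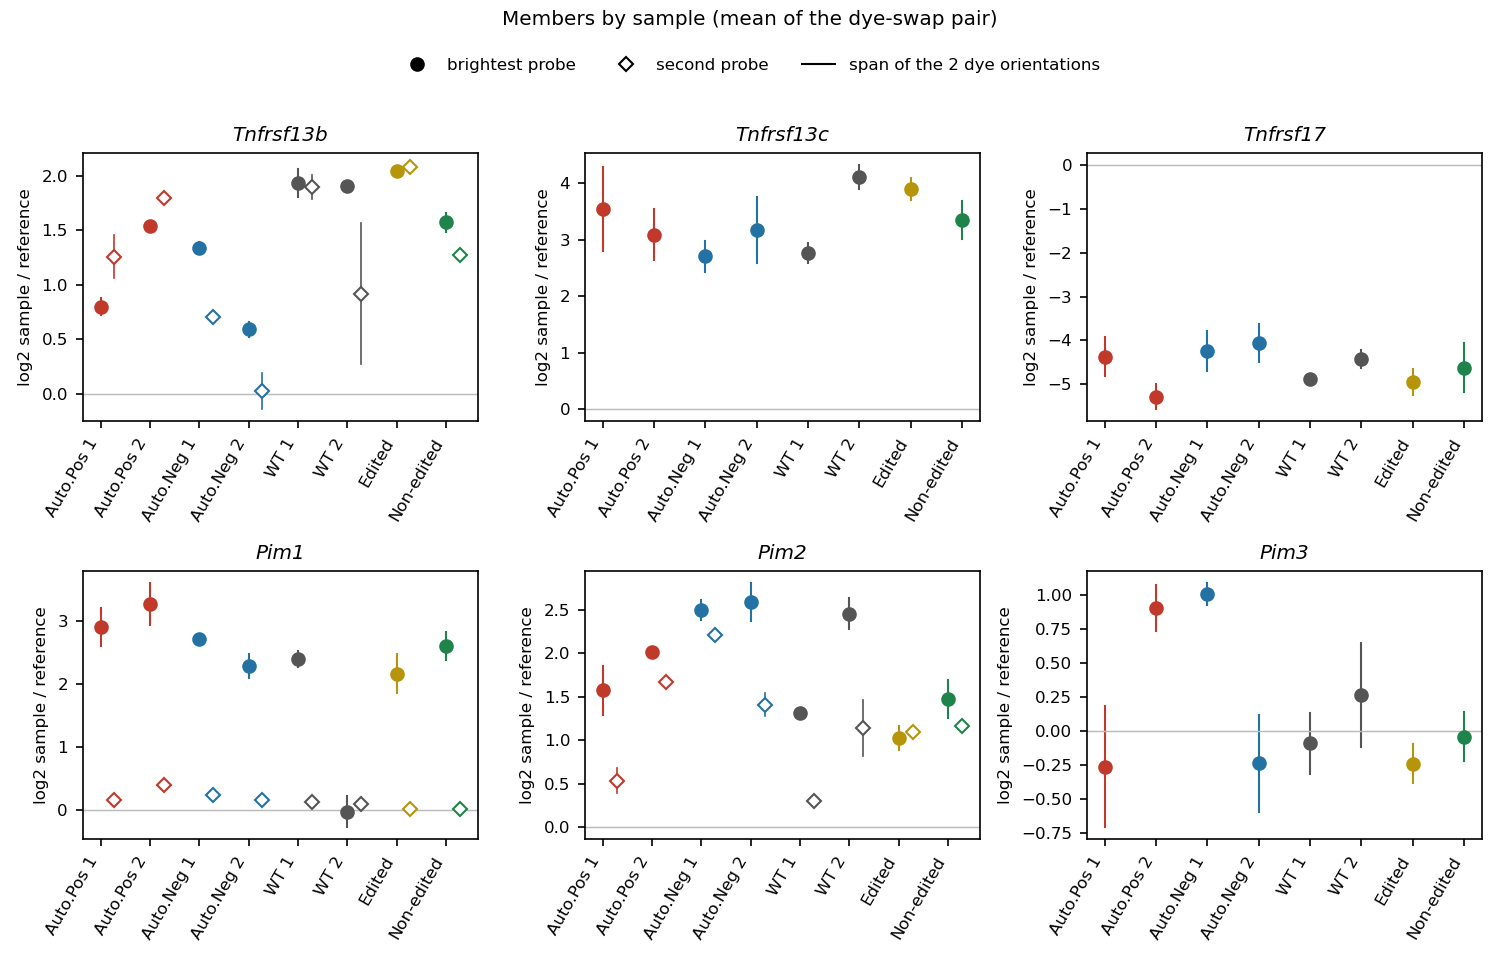
Log2 ratio of sample over reference for the 6 genes in each of the 8 samples. Filled circles are the brightest probe, open diamonds the second probe, and vertical lines join the values of the 2 dye orientations. The WT sample at -0.02 for Pim1 lies apart from the other 7, which range from 2.16 to 3.26.

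On its brightest probe Tnfrsf13b, the gene of TACI, read lower in Auto.Pos and Auto.Neg cells than in WT cells, short of the test's threshold. It read 0.80 and 1.54 in Auto.Pos cells, 1.34 and 0.59 in Auto.Neg cells, 1.94 and 1.91 in WT cells, 2.05 in Edited cells and 1.57 in Non-edited cells. All 4 Auto.Pos and Auto.Neg samples lay below both WT samples, and the Auto.Pos and Auto.Neg ranges overlapped. The lower value of Auto.Pos and of Auto.Neg came from slide 2, which they share. By mean, the order was Edited, WT, Non-edited, Auto.Pos and Auto.Neg. The difference of Auto.Pos from WT was -0.75 (SE 0.37), with a 95% interval of -1.70 to 0.20, and -0.37 within scan day 3. Without Auto.Pos sample 1, which lay on slide 2, it was -0.39. That of Auto.Neg from WT was -0.96 (SE 0.37), with an interval of -1.91 to -0.01, and -0.58 without Auto.Neg sample 2, the other sample on slide 2. limma's unadjusted p was 0.0971 for Auto.Pos against WT and 0.0489 for Auto.Neg against WT, and the adjusted p was 0.989 and 1.00, so neither passed.

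The second Tnfrsf13b probe is dimmer, with a mean log2 intensity of 7.78 beside 12.70 for the other. It read 1.26 and 1.80 in Auto.Pos cells, 0.70 and 0.03 in Auto.Neg cells, 1.90 and 0.92 in WT cells, 2.08 in Edited cells and 1.28 in Non-edited cells. Both Auto.Neg samples lay below all 6 others, and Auto.Pos overlapped with WT, so the placing of Auto.Pos below WT was seen with the brightest probe alone. Auto.Pos stood 1.16 above Auto.Neg on this probe (SE 0.45, limma's unadjusted p = 0.0473, adjusted p = 1.00) and 0.20 above it on the brightest (SE 0.37, unadjusted p = 0.61). Within slide 2 it stood 1.23 and 0.21 above it on these probes. Auto.Pos minus WT was 0.12 on the second probe (SE 0.45) and 0.88 within scan day 3. Auto.Neg stood below WT on both, at -1.05 (SE 0.45) and -0.96. The dyes of WT sample 2 differed by 1.29 on the second probe, the widest gap of any sample there. Across the 8 samples, which share the reference and partly the slides, the 2 probes correlated at r = 0.705.

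Tnfrsf13c, the gene of the BAFF receptor, read 3.55 and 3.09 in Auto.Pos cells, 2.71 and 3.17 in Auto.Neg cells, 2.77 and 4.11 in WT cells, 3.91 in Edited cells and 3.35 in Non-edited cells. The WT samples lay 1.34 apart and spanned nearly the whole range, so each pair of replicated groups overlapped. The order of the means was Edited, WT, Non-edited, Auto.Pos and Auto.Neg, and no neighbours in it lay further apart than the gap between the WT samples. The difference of Auto.Pos from Auto.Neg was 0.38 (interval -0.89 to 1.65), that of Auto.Pos from WT -0.12 (-1.39 to 1.15) and that of Auto.Neg from WT -0.50 (-1.77 to 0.77). Within slide 2 Auto.Pos minus Auto.Neg was 0.37, and within scan day 3 Auto.Pos minus WT was -1.02. These intervals hold changes of more than 2-fold either way for Auto.Pos against WT, so an equal level is not shown either. The arrays with the sample in Cy3 read 0.35 to 1.48 above their Cy5 partners in all 8 samples. This gap was unequal, at 1.48 and 0.91 in Auto.Pos cells and 0.35 and 0.42 in WT cells. Auto.Pos minus WT was -0.53 in Cy5 and 0.28 in Cy3. Whether the average of a pair removes the dye difference was not tested.

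Tnfrsf17, the gene of BCMA, was the member with ratios far below 0 throughout. It read -4.37 and -5.29 in Auto.Pos cells, -4.25 and -4.06 in Auto.Neg cells, -4.88 and -4.43 in WT cells, -4.95 in Edited cells and -4.62 in Non-edited cells. This was between 16.7-fold and 39.0-fold under the reference pool, in which a plasmacytoma line is included, and the sample channel still stood well above background on each of the 16 arrays. With the dyes averaged, both Auto.Neg samples lay above all other samples. With the sample in Cy3, WT sample 2 lay above them, at -4.23 against -4.71 and -4.49. Auto.Pos stood 0.68 lower than Auto.Neg (difference -0.68, SE 0.37, limma's unadjusted p = 0.125, adjusted p = 1.00), and within slide 2 the difference was -0.31. Without Auto.Pos sample 2 it was -0.22, and without Auto.Pos sample 1 it was -1.13. Auto.Neg minus WT was 0.50 (SE 0.37), and it came from the Cy5 arrays, at 0.9985 in Cy5 and 0.004 in Cy3. Auto.Pos minus WT was -0.17 (SE 0.37), and -0.86 within scan day 3. The summed sample channel of the 9 plasma cell markers was 63550 and 63380 in Auto.Pos cells, 52470 and 54130 in Auto.Neg cells and 60290 and 47550 in WT cells. The markers did not move together: 6 read higher and 3 lower in Auto.Pos than in Auto.Neg. Jchain stood at -0.97 (SE 0.29) and Sdc1 at 0.63 (SE 0.27) in that comparison, both named after their values were seen. In Auto.Neg against WT 3 read higher and 6 lower, with Sdc1 at -1.77 (SE 0.27). The part of plasma cells in the Tnfrsf17 values was not tested. In RNA from sorted cells, fewer cells of a type and less RNA per cell cannot be told apart.

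Over all 8 samples Pim1 varied most of the 6 genes, through 1 WT sample. Its brightest probe read 2.90 and 3.26 in Auto.Pos cells, 2.70 and 2.28 in Auto.Neg cells, 2.39 and -0.02 in WT cells, 2.16 in Edited cells and 2.60 in Non-edited cells. WT sample 2 stood apart from the 7 others in both dye orientations, at 0.23 and -0.26, while WT sample 1 lay inside the range of Auto.Neg. With the dyes averaged, both Auto.Pos samples lay above all 6 others. With the sample in Cy3, Auto.Pos sample 1 (2.60) lay just below Auto.Neg sample 1 (2.66). Its SD over the 8 samples was 1.00, larger than for 98.1% of tested genes, whose median SD was 0.32. This rank rests on WT sample 2, since the 7 others ran from 2.16 to 3.26. The brightest probes of the other members had ranges of 1.23 to 1.56 log2 units over the 8 samples.

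The difference of Auto.Pos from WT for Pim1 was 1.89 (SE 0.79, interval -0.13 to 3.92, limma's unadjusted p = 0.0612, adjusted p = 0.914). Without WT sample 2 it was 0.69, and within scan day 3, against WT sample 2 alone, it was 3.28. Auto.Neg minus WT was 1.31 (SE 0.79) and 0.10 without WT sample 2. Auto.Pos minus Auto.Neg, which does not involve WT, was 0.59 (SE 0.79), with 0.61 within slide 2, and the groups did not overlap. The sample that decides the WT differences also had the highest summed level of the 9 macrophage and monocyte markers. That level was 61610 and 23340 in Auto.Pos cells, 18090 and 34630 in Auto.Neg cells, 43600 and 74330 in WT cells, 13290 in Edited cells and 11180 in Non-edited cells, with 8 or 9 of 9 markers above background in each. Its T cell marker sum of 19550 was the highest as well, against 7902 to 13730 elsewhere, and so was its neutrophil marker sum of 48250, against 7684 to 40030. WT sample 2 was not highest in the erythroid and platelet sum (242900, against 383000 in Auto.Neg sample 2). Nor was it in the NK cell sum (3246, against up to 7694) or the dendritic cell sum (1839, against up to 3814). By median ratio another sample was highest for macrophages and monocytes (2.99 against 2.83), neutrophils (3.829 against 3.823) and T cells (-2.18 against -2.30). The part of these cells in the Pim1 value was not tested. The second Pim1 probe was above background on 11 of 16 arrays in the sample channel and on 4 in the reference channel, and its ratios of 0.02 to 0.40 are drawn in the plots and enter the alternative settings, but no statement on Pim1 here rests on them.

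Pim2, a kinase gene linked to B cell survival, read 1.57 and 2.01 in Auto.Pos cells, 2.50 and 2.59 in Auto.Neg cells, 1.32 and 2.46 in WT cells, 1.03 in Edited cells and 1.48 in Non-edited cells on its brightest probe. The Auto.Neg samples lay above all others and only 0.09 apart, with WT sample 2 just under them. Auto.Pos stood at -0.75 relative to Auto.Neg (SE 0.42, limma's unadjusted p = 0.132, adjusted p = 1.00), and at -1.02 within slide 2. Auto.Neg minus WT was 0.66 (SE 0.42), which was 0.09 without WT sample 1, and Auto.Pos minus WT was -0.09 (SE 0.42), with -0.44 within scan day 3. On the second probe the values were 0.53 and 1.67 in Auto.Pos cells, 2.21 and 1.41 in Auto.Neg cells, 0.30 and 1.14 in WT cells, 1.09 in Edited cells and 1.16 in Non-edited cells. The second probe gave a like difference between Auto.Pos and Auto.Neg, -0.71 (SE 0.54) and -0.87 within slide 2, but there the groups overlapped. Auto.Pos minus WT was 0.38 on it (SE 0.54) and 0.53 within scan day 3. It placed Auto.Neg above WT without overlap too, with a difference of 1.09 (SE 0.54, unadjusted p = 0.0996). The 2 Pim2 probes correlated at r = 0.638 over the 8 samples.

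Pim3, the third kinase of the family, differed more between samples of a group than between groups. It read -0.26 and 0.90 in Auto.Pos cells, 1.00 and -0.24 in Auto.Neg cells, -0.09 and 0.27 in WT cells, -0.24 in Edited cells and -0.04 in Non-edited cells. The 2 samples on slide 2 gave nearly equal values of -0.26 and -0.24, and the partner of each lay more than 1 log2 unit above it. The gap between samples was 1.17 within Auto.Pos and 1.24 within Auto.Neg, beside medians of 0.37 and 0.37 over all genes. The group differences were smaller than these gaps, at -0.06 for Auto.Pos minus Auto.Neg, 0.23 for Auto.Pos minus WT and 0.30 for Auto.Neg minus WT (SE 0.57 each). Within slide 2 Auto.Pos minus Auto.Neg was -0.02, and within scan day 3 Auto.Pos minus WT was 0.64.

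**Figure D2:**
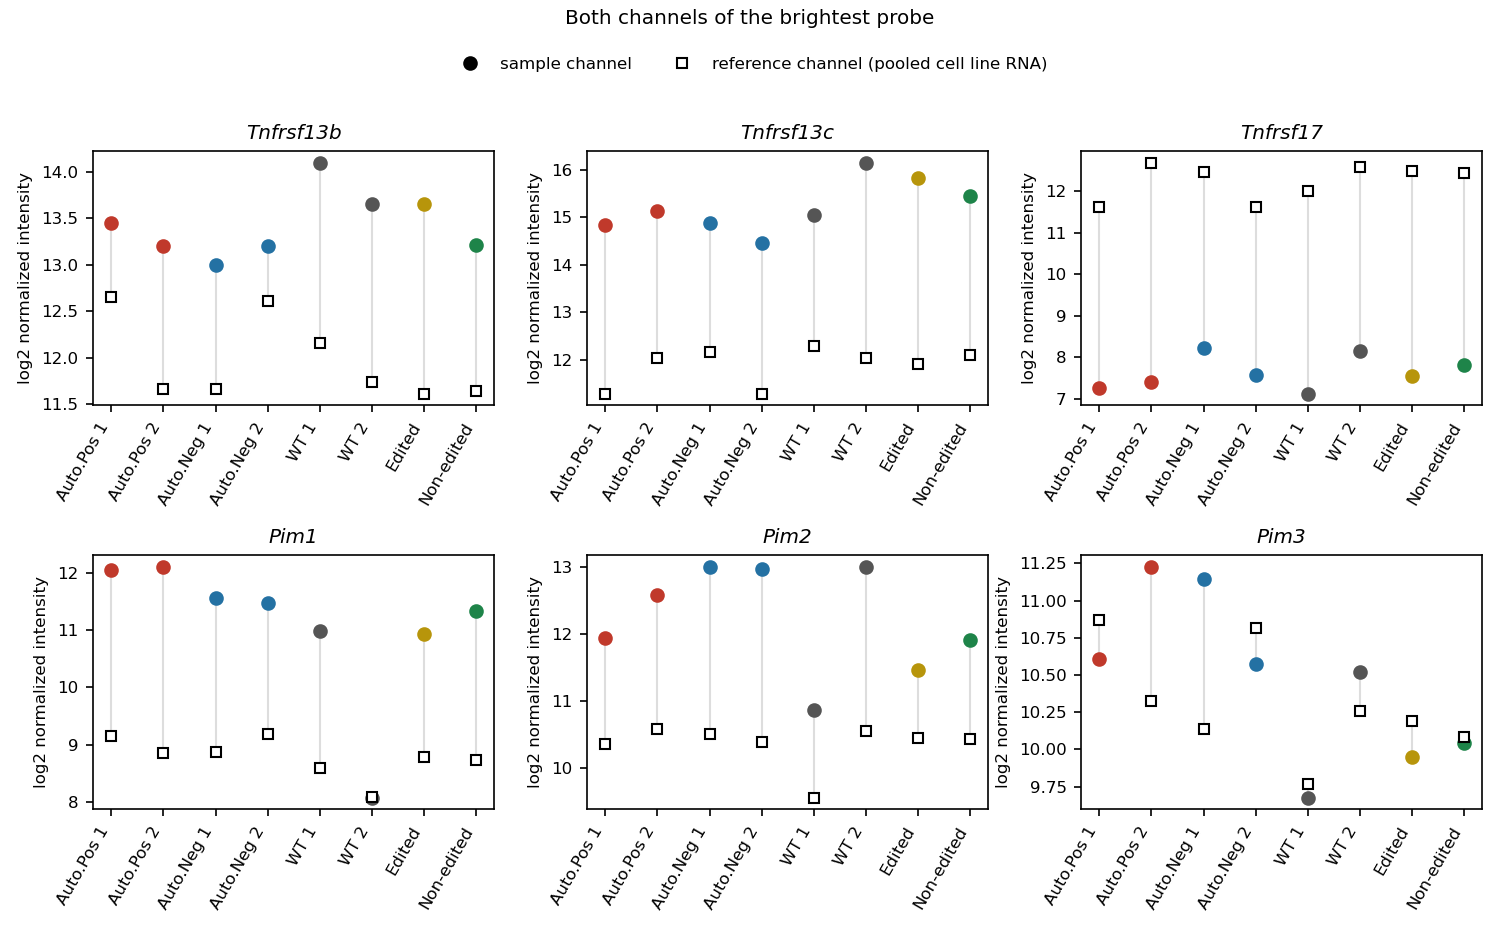
Normalized log2 intensity of the brightest probe in the sample channel (filled circles) and in the reference channel (open squares) for each of the 8 samples. The reference RNA is the same pool throughout, yet its signal on slide 2 (Auto.Pos 1 and Auto.Neg 2) was the highest for Tnfrsf13b, Pim1 and Pim3 and the lowest for Tnfrsf13c and Tnfrsf17, and neither for Pim2.

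The reference channel was also compared, since it holds the same pooled RNA on every array. After the arrays were brought to a common intensity distribution, its range over the 8 samples was 1.00 to 1.11 log2 units for the 6 genes, against a median of 0.80 over all tested genes. For Tnfrsf13b it read 12.65 for Auto.Pos sample 1 and 12.61 for Auto.Neg sample 2, and 11.61 to 12.16 for the other 6 samples. The sample channel of the same probe was 13.45 and 13.21 in Auto.Pos cells, 13.00 and 13.20 in Auto.Neg cells, 14.10 and 13.65 in WT cells, 13.66 in Edited cells and 13.21 in Non-edited cells. The 4 Auto.Pos and Auto.Neg samples thus lay below both WT samples in the sample channel too, with differences from WT of -0.55 for Auto.Pos and -0.77 for Auto.Neg, and the 2 samples on slide 2 no longer stood lowest.

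For Pim3 the sample channel read 10.61 and 11.23 in Auto.Pos cells, 11.14 and 10.58 in Auto.Neg cells and 9.67 and 10.52 in WT cells, so that all 4 Auto.Pos and Auto.Neg samples lay above both WT samples, which their ratios did not show. The margin was narrow for Auto.Neg sample 2 against WT sample 2. The reference channel of Pim3 was 10.87 and 10.82 on slide 2 and 9.77 to 10.33 elsewhere. Though it holds the same pool, it differed in the same direction as the sample channel. Auto.Pos minus WT was 0.59 in the reference and 0.82 in the sample channel, and Auto.Neg minus WT was 0.47 and 0.76. The sample channel of Pim3 is therefore not read here as a difference between the groups. For Pim1 the range of the sample channel, 4.04 log2 units, was larger than for 99.4% of genes, with 8.07 in WT sample 2 and 10.94 to 12.11 in the other 7 samples. Its reference channel was lowest in that sample as well, at 8.09, against 8.60 to 9.18. Whether the reference pool or the hybridisation differed between slides was not tested.

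**Figure D3:**
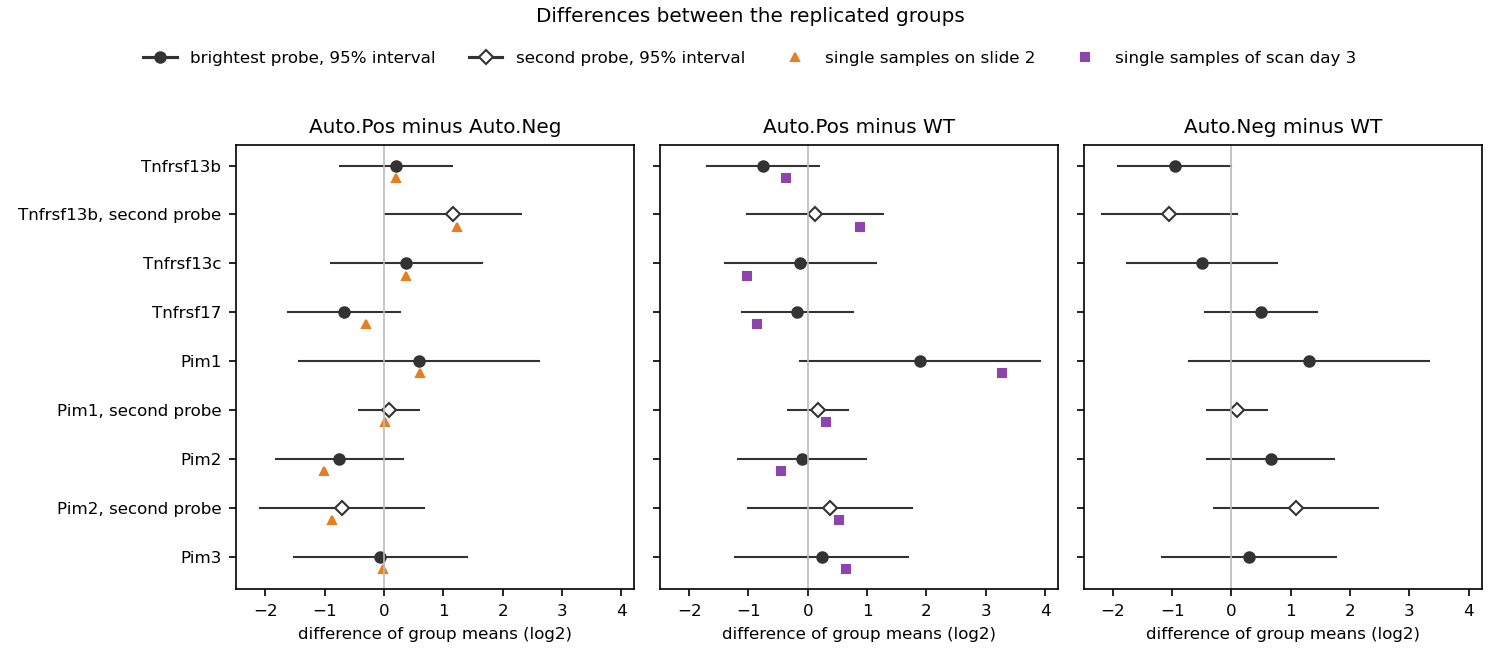
Differences of group means on the log2 scale for every member probe, with 95% intervals from limma (circles and diamonds), and differences of single samples on slide 2 (triangles) or of scan day 3 (squares). The intervals that leave out 0 are those of the second Tnfrsf13b probe for Auto.Pos minus Auto.Neg and of the brightest Tnfrsf13b probe for Auto.Neg minus WT.

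Counted together, 0 of the 6 genes were called at an adjusted p under 0.05 in any of the 3 comparisons by limma. Over all genes the share called was 0.0147% for Auto.Pos against Auto.Neg, which is 3 genes outside the set (listed as BC080787, ENSMUST00000089814 and ENSMUST00000089809, and named after their values were seen), and 0% for Auto.Pos and for Auto.Neg against WT. At an unadjusted p under 0.05 the members numbered 0, 0 and 1, beside 1.04% of all genes for Auto.Pos against Auto.Neg, 5.63% for Auto.Pos against WT and 4.6% for Auto.Neg against WT. The groups did not overlap for 3 of 6 members between Auto.Pos and Auto.Neg (Pim1 higher, Tnfrsf17 and Pim2 lower in Auto.Pos), beside 19.2% of all genes (11.1% higher and 8.17% lower). Between Auto.Pos and WT they did not overlap for 2 of 6 (Pim1 higher, Tnfrsf13b lower in Auto.Pos), beside 29.6% of all genes (19.2% higher and 10.4% lower). Between Auto.Neg and WT they did not overlap for 3 of 6 (Tnfrsf17 and Pim2 higher, Tnfrsf13b lower in Auto.Neg), beside 25% of all genes (15.4% higher and 9.57% lower). The overlap was judged on dye averages. In Cy3 alone, Pim1 overlapped between Auto.Pos and Auto.Neg, and Tnfrsf17 between Auto.Neg and WT. The comparisons share samples, so these counts are not separate evidence.

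Edited cells were set against Non-edited cells, 1 sample each, with no replicate check and no p-value. Of the receptor genes, Edited minus Non-edited was 0.47 for Tnfrsf13b (0.80 on the second probe), 0.55 for Tnfrsf13c and -0.33 for Tnfrsf17. For the Pim genes it was -0.44 for Pim1, -0.45 for Pim2 (-0.07 on the second probe) and -0.20 for Pim3. Each of these 6 differences had the same sign in both dye orientations on the brightest probe, which are 2 readings of the same samples. With median centring they were 0.70 for Tnfrsf13b, 0.78 for Tnfrsf13c and -0.055 for Tnfrsf17. For Pim1, Pim2 and Pim3 they were then -0.16, -0.16 and 0.055, so the sign of Pim3 changed. None of the 6 genes was 2-fold apart in both orientations, beside 1.4% of all genes (1.22% higher and 0.172% lower).

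The 6 genes did not follow each other across the 8 samples. Over their 15 pairs, Pearson's r ran from -0.65 (Tnfrsf13c with Pim1) to 0.585 (Tnfrsf17 with Pim2), as a description of samples that share a reference and in part slides. Among 8377 genes with an SD of at least 0.3, the patterns most like that of Tnfrsf13b over the 8 samples were those of Il5ra and Ercc5 (r = 0.975 each). The closest to Tnfrsf13c were Stx7 (0.977) and Hipk3 (0.973), and the closest to Tnfrsf17 were Slc25a13 (0.964) and Stab1 (0.963). Gps2 (0.983) and Marf1 (0.972) were closest to Pim1, Ccrl2 (0.932) and Serpina3f (0.908) to Pim2, and Med18 (0.923) and Enc1 (0.912) to Pim3. Gps2 read 1.41 and 1.49 in Auto.Pos cells, 1.42 and 1.23 in Auto.Neg cells and 1.39 and 0.28 in WT cells, so its likeness to Pim1 rests on the same WT sample. Il5ra read -0.48 and 0.39 in Auto.Pos cells, 0.00 and -0.74 in Auto.Neg cells and 1.12 and 0.78 in WT cells, with both slide 2 samples lowest as for Tnfrsf13b.

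**Figure D4:**
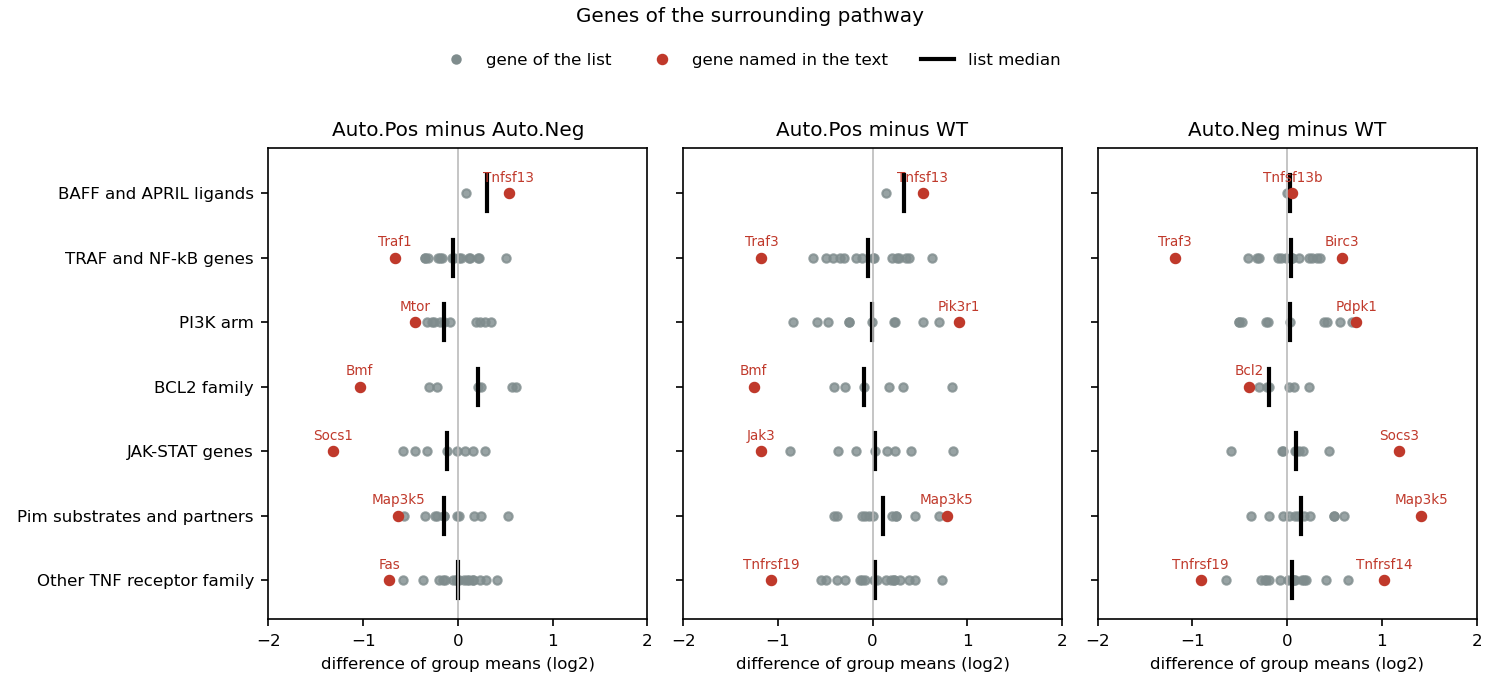
Difference of group means (log2) for each tested gene of 7 lists around the receptors and Pim kinases. Red points are the genes picked for that list and comparison by the size of their difference. Other genes are grey, also where the text names them, as with Myc. Black bars are list medians, which lie between -0.19 and 0.33. Traf3 stands at -1.17 in Auto.Pos and -1.19 in Auto.Neg relative to WT.

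The genes around the receptors were read from 7 lists, and 0 genes of any list were called in any comparison. Of the ligand genes, Tnfsf13b (BAFF) read 0.36 and 0.53 in Auto.Pos cells, 0.31 and 0.41 in Auto.Neg cells and 0.40 and 0.20 in WT cells, with overlap between all groups. A second Tnfsf13b probe read -0.35 and -0.14, -0.42 and -0.22, and -0.45 and -0.26 in these groups, also with overlap. Both probes were dim, with mean log2 intensities of 7.07 and 6.97. They differ on whether the gene read above or below the reference. Tnfsf13 (APRIL) read 2.95 and 2.44 in Auto.Pos cells, 1.88 and 2.44 in Auto.Neg cells and 2.03 and 2.30 in WT cells, and Auto.Pos lay above WT without overlap (difference 0.53, SE 0.30) and above Auto.Neg sample 2 in the third decimal only. Tnfsf12, a further TNF family gene that was put on this list, did not pass the filter on dim probes.

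Among the 16 TRAF and NF-kB genes, Traf3, the adaptor that holds the non-canonical pathway down in resting B cells, had the largest differences from WT. It read -0.07 and -0.23 in Auto.Pos cells, -0.21 and -0.12 in Auto.Neg cells, 0.61 and 1.44 in WT cells, 0.16 in Edited cells and 0.01 in Non-edited cells. All 6 transgenic samples lay below both WT samples. The difference was -1.17 for Auto.Pos (SE 0.32, limma's unadjusted p = 0.0135, adjusted p = 0.637) and -1.19 for Auto.Neg (SE 0.32, unadjusted p = 0.0129, adjusted p = 0.846), and neither passed. Auto.Pos minus Auto.Neg was 0.01. Birc3, a ubiquitin ligase recruited by TRAF proteins, stood 0.57 above WT in Auto.Neg (SE 0.18, unadjusted p = 0.024), and 0.33 above it on a second probe. Traf1, which NF-kB induces, stood at -0.67 in Auto.Pos relative to Auto.Neg (SE 0.37). The list median was -0.05 for Auto.Pos against Auto.Neg, -0.05 for Auto.Pos against WT and 0.04 for Auto.Neg against WT, beside 0.02, 0.06 and 0.04 over all genes.

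Of the 11 genes of the PI3K arm, which carries tonic survival signals of the B cell receptor, 4 read higher and 7 lower in Auto.Pos than in Auto.Neg. Pdpk1, a kinase that activates AKT, read 1.53 and 1.23 in Auto.Pos cells, 1.53 and 1.62 in Auto.Neg cells and 1.20 and 0.49 in WT cells on its brightest probe. All 4 transgenic samples lay above both WT samples, by a narrow margin for Auto.Pos sample 2. Auto.Neg stood 0.73 above WT (SE 0.30, limma's unadjusted p = 0.0568, adjusted p = 0.9999), and its 2 dimmer probes gave 0.38 and 0.31. Pik3r1, the main regulatory subunit, stood at 0.91 in Auto.Pos relative to WT (SE 0.51) and at -0.04, -0.07 and -0.68 on its 3 other probes. Mtor, a kinase downstream of AKT, stood at -0.45 in Auto.Pos relative to Auto.Neg (SE 0.45) and at -0.08 on a second probe. List medians were -0.15 for Auto.Pos against Auto.Neg, -0.01 for Auto.Pos against WT and 0.03 for Auto.Neg against WT.

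Of 9 BCL2 family genes 7 were tested, with list medians of 0.21 for Auto.Pos against Auto.Neg, -0.09 for Auto.Pos against WT and -0.19 for Auto.Neg against WT. Bmf, a pro-death member, read 1.79 and 1.04 in Auto.Pos cells, 1.98 and 2.92 in Auto.Neg cells and 3.34 and 1.99 in WT cells on its brightest probe, with both Auto.Pos samples below the 4 others. Its differences were -1.04 from Auto.Neg and -1.25 from WT (SE 0.59 each), and its 2 dimmer probes gave 0.03 and -0.26 and then 0.17 and -0.18. Bcl2, the survival gene of the family, stood 0.17 above WT in Auto.Pos and at -0.40 in Auto.Neg (SE 0.47 each) on its brightest probe. A further Bcl2 probe read 6.03 and 5.64 in Auto.Pos cells, 5.13 and 5.88 in Auto.Neg cells and 4.71 and 4.16 in WT cells, with differences from WT of 1.40 (unadjusted p = 0.0116) and 1.07 (unadjusted p = 0.0315). The other Bcl2 probe, of like brightness to that one, gave 0.19 for Auto.Pos (unadjusted p = 0.471) and -0.03 for Auto.Neg (unadjusted p = 0.922). The 3 probes thus do not give the same picture of Bcl2.

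Of the 9 genes of the JAK-STAT pathway, which induces Pim genes, list medians were -0.12 for Auto.Pos against Auto.Neg, 0.03 for Auto.Pos against WT and 0.09 for Auto.Neg against WT. Socs1, a feedback inhibitor of JAK kinases, read -0.38 and -1.35 in Auto.Pos cells, 0.17 and 0.73 in Auto.Neg cells and -0.79 and 0.80 in WT cells. The Auto.Pos samples lay below both Auto.Neg samples, with a difference of -1.32 (SE 0.63, limma's unadjusted p = 0.0916). Socs3, a related inhibitor, stood 1.18 above WT in Auto.Neg (SE 0.53), and Jak3, a kinase of cytokine receptors, at -1.18 in Auto.Pos relative to WT (SE 0.69). A second Jak3 probe of nearly the same brightness gave -0.51 (unadjusted p = 0.41), with overlap between the groups.

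Of the 12 substrates and partners of Pim kinases, 4 read higher and 8 lower in Auto.Pos than in Auto.Neg, with a median of -0.15. In Auto.Pos against WT 7 read higher and 5 lower (median 0.11), and in Auto.Neg against WT 9 higher and 3 lower (median 0.14). Map3k5, a stress-activated kinase, read 2.53 and 1.61 in Auto.Pos cells, 2.75 and 2.65 in Auto.Neg cells and 1.89 and 0.67 in WT cells. It stood 1.41 above WT in Auto.Neg without overlap (SE 0.51, limma's unadjusted p = 0.038). Myc, a transcription factor gene that works with Pim kinases in lymphoma models, read -3.38 and -3.09 in Auto.Pos cells, -2.86 and -3.13 in Auto.Neg cells and -3.05 and -3.92 in WT cells, with overlap between all groups.

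Of 18 further TNF receptor family genes, medians were 0.00 for Auto.Pos against Auto.Neg, 0.03 for Auto.Pos against WT and 0.05 for Auto.Neg against WT. Tnfrsf14, a receptor that pairs with BTLA, stood 1.02 above WT in Auto.Neg (SE 0.32, limma's unadjusted p = 0.0224) and 0.88 above it on a second probe. Fas, the death receptor gene, read 0.20 and 0.04 in Auto.Pos cells, 0.64 and 1.05 in Auto.Neg cells and 0.36 and 0.97 in WT cells, and Auto.Pos lay below both other groups. Its differences were -0.72 from Auto.Neg and -0.54 from WT (SE 0.29 each), and a second Fas probe, with gaps of more than 2 log2 units within Auto.Pos and within Auto.Neg, gave 0.13 and 0.27. Tnfrsf19, which read far below the reference, stood at -1.07 in Auto.Pos and -0.91 in Auto.Neg relative to WT (SE 0.32 each).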

How the data were processed

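RNA of 8 biological samples was measured on 16 dual-colour arrays. The scanner files hold, per the file headers, mean spot and median background intensity in each channel (Agilent Feature Extraction 9.1.1.1, 9.1.3.1 and 9.5.1.1) and a background-subtracted, lowess-corrected log10 ratio. The deposited series table holds log2 ratios centred near 0 (column medians -0.0191 to 0.0176), with limma named in the submitters' processing notes and no step given. Of its 16 columns 10 matched another array than the labelled one, so scanner files were used and the series table served as an alternative. Total RNA was amplified before labelling, per the labels' protocols.

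In R 4.3.3 (limma 3.58.1, and data.table in version 1.17.8), intensities were corrected by normexp (offset 50), loess-normalized with control spots at weight 0, cleared of outlier spots and turned to sample over reference, and dye pairs were averaged. Probes well above background in the sample channel on both arrays of at least 2 samples were kept (29640 of 41174). Each gene took its brightest kept probe. limma fitted 1 mean per group to all 8 samples (3 residual and 2.11 prior degrees of freedom), with Benjamini-Hochberg adjustment over 20469 genes. Of the gene-by-sample values, 358 rested on 1 array, and 6 genes lacked a sample. Fits were tested on simulated data. The number of arrays limits the precision.

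The members and gene lists were chosen with earlier results of these data known. Named pathway genes are, per list and comparison, up to 2 with the largest difference at an unadjusted p under 0.05, or else the 1 with the largest difference, plus genes named for their role (Tnfsf13b, Myc). Some genes of the lists are not reported here, and the list counts and medians leave them out. Alike genes are the 2 with the highest r per member. Deviations of same-numbered samples from their group means correlated at -0.788 (Auto.Pos and Auto.Neg), 0.252 (Auto.Pos and WT) and -0.279 (Auto.Neg and WT), so replicate numbers do not pair the samples. Probes were named by accession (22951), file name (8455), symbol (6659) or synonym (3109) through RefSeq.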

Additional observations from a re-analysis of the deposited data

How the results depend on the processing

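In the 3 comparisons of replicated groups, 399 member values were obtained under other settings. Of these, 30 had the opposite sign of the value reported and 8 of 387 tested ones passed the threshold. All 8 came from the series table read by its column labels, in which 10 of 16 columns match another array and the Auto.Neg columns mix dye directions. Read that way, it called 7704 genes for Auto.Pos against Auto.Neg and 6962 for Auto.Neg against WT, and gave Pim2 1.72 and Pim3 0.45 for Auto.Pos against Auto.Neg, Tnfrsf13b 0.16 and Pim3 -0.24 for Auto.Pos against WT, and Pim1 -1.52, Pim2 -2.56 and Pim3 -0.69 for Auto.Neg against WT. For Auto.Pos against Auto.Neg, 3 genes were called as reported, 1 with median centring, 0 without a filter on dim probes, 0 with only the compared groups fitted, 0 with the sample in Cy3 and 12 with the sample in Cy5. For Auto.Pos against WT the scanner software's ratio called 15, scale normalization 8 and the Cy5 arrays 72, and for Auto.Neg against WT the Cy5 arrays called 60. The scanner software's ratio placed 808 genes 2-fold apart between Edited and Non-edited cells, against 284 as reported.

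The replicate block gave 0 calls for Auto.Pos against Auto.Neg, and the protocol named in the file headers, taken as a block, gave 6. The file headers name 2 protocols, each with 1 sample of every replicated group (Auto.Pos 1, Auto.Neg 2 and WT 1 against Auto.Pos 2, Auto.Neg 1 and WT 2). The former went with Feature Extraction 9.1.1.1 or 9.1.3.1 and the latter with 9.5.1.1, so protocol and software version cannot be told apart. The crossed replicate block, chosen after seeing the data, divides these samples alike and is the same fit, with 6 calls. The block changed no member's call. By limma with this block, the lowest adjusted p of a member was 0.436 for Auto.Pos against WT and 0.390 for Auto.Neg against WT. Both were of Tnfrsf13b, beside 0.989 and 0.9999 without the block. In these comparisons the genes at an unadjusted p under 0.05 rose from 1152 to 2201 and from 942 to 2019. The SEs, intervals and p-values given for the members come from the fit without a block. Also chosen after seeing the data, the series table with columns rematched called 14 genes for Auto.Pos against WT and 1 for Auto.Neg against WT. The sample channel alone called 12 for Auto.Pos against Auto.Neg, 58 for Auto.Pos against WT and 45 for Auto.Neg against WT, and gave Pim3 0.059 for Auto.Pos against Auto.Neg and Pim2 0.33 for Auto.Pos against WT.

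Further values changed sign. For Auto.Pos against WT these were Pim3 at -0.12 with median centring, Tnfrsf17 at 0.25 with scale normalization and 0.25 in Cy5, Tnfrsf13c at 0.28 in Cy3, Pim2 at 0.14 with probes averaged and 0.38 on its second probe, and Tnfrsf13b at 0.12 on its second probe. For Auto.Pos against Auto.Neg, Pim3 was 0.026 in Cy5. For Edited against Non-edited cells, Pim3 was 0.055 with median centring. Leaving out each sample in turn gave 0 calls by limma in each of the 3 comparisons, and 135 to 446 genes reached an unadjusted p under 0.05 for Auto.Pos against Auto.Neg. For Auto.Pos against Auto.Neg it moved Tnfrsf13b between -0.17 and 0.58, Tnfrsf17 between -1.13 and -0.22 and Pim3 between -0.68 and 0.56. For Auto.Pos against WT it moved Tnfrsf13b between -1.12 and -0.39, Tnfrsf13c between -0.79 and 0.55, Tnfrsf17 between -0.63 and 0.28, Pim2 between -0.66 and 0.48 and Pim3 between -0.35 and 0.82. For Auto.Neg against WT it moved Tnfrsf13b between -1.33 and -0.58, Tnfrsf13c between -1.17 and 0.17 and Pim3 between -0.33 and 0.92. The cause of these changes was not tested. A random block for slide could not be fitted, since 7 slides hold 8 samples. With the spread of the replicated groups taken for the single samples, limma called 0 genes between Edited and Non-edited cells (241 at an unadjusted p under 0.05).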
